A study of Mus musculus with 10 samples.

Results

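The genes described here are 5 genes of organic osmolyte handling, Slc5a3, Slc6a6, Slc38a2, Akr1b3 and Nfat5, out of the 39017 genes counted by RNA sequencing in mouse lung tumours labelled as control or as deleted for Glut1. They were taken by symbol from the table of read counts, and each symbol stood in 1 row. The set was chosen by the read counts of Slc5a3, which were lower in the tumours labelled Glut1-KO, together with the known roles of the other genes. The differences between genotypes are therefore given as a description, with a standard error and without a test. Their levels, their covariation between libraries and the other genes of the pathway are described as well.

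All mice were C57BL/6 and carried floxed Trp53 among other alleles. Tumours were started through the airways with Ad5CC10-Cre, an adenovirus in which a CC10 promoter, active in the secretory club cells of the bronchioles, drives Cre recombinase, and they were taken 20 weeks and 1 day later. KPG1 tumours, called Glut1-KO below, were homozygous for a floxed Slc2a1, which encodes the glucose transporter Glut1. KP controls were labelled as heterozygous for the floxed gene, whereas the design text calls them wild type. Tumours were cut out, dissociated and depleted of CD45-positive leukocytes, so each library holds the RNA of a mixed CD45-negative fraction. There were 5 control libraries, all labelled male, and 5 Glut1-KO libraries, 3 from females (replicates 1 to 3) and 2 from males (replicates 4 and 5) by their labels. No label says which libraries came from the same mouse. A further number in the deposited names is shared by controls 1, 2 and 5, by controls 3 and 4 and by Glut1-KO 4 and 5, so the spread between libraries may not be that between mice.

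Organic osmolytes are small uncharged or weakly charged molecules, such as myo-inositol, taurine, betaine, sorbitol and neutral amino acids, that cells take up or make to hold their volume when the fluid around them becomes concentrated. The transcription factor NFAT5, also called TonEBP, raises the transcription of the transporters and enzymes concerned and is best known from the renal medulla. Slc5a3 encodes SMIT1, the sodium-coupled myo-inositol transporter, and myo-inositol is also the head group precursor of phosphatidylinositol, a lipid of all membranes and of lung surfactant. Slc6a6 encodes TauT, the taurine transporter, and Slc38a2 encodes SNAT2, a sodium-coupled transporter of small neutral amino acids. Akr1b3 encodes aldose reductase, which reduces glucose to sorbitol in the first step of the polyol pathway.

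Total counts per library ran from 40122224 to 49760462 in controls and from 35250991 to 44625716 in Glut1-KO libraries. Slc2a1, the targeted gene, was between 73.2 and 118 CPM (the counts-per-million unit, relative to the scaled library total) in the controls. It was 60.3, 42.5 and 34.6 CPM in Glut1-KO replicates 1 to 3 and 92.4 and 103 CPM in replicates 4 and 5, which lay inside the range of the controls. The word Glut1-KO therefore stands for the label throughout. Counts over the whole gene cannot tell its floxed exons from the rest. The log2 difference of Slc2a1 was -0.62 (SE 0.29), with an adjusted p of 0.658 in limma. Summed markers of alveolar type 2 cells, the surfactant-producing cells, ranged from 26956 to 84184 CPM in controls and from 51235 to 71026 in Glut1-KO libraries. Markers of leukocytes, which the bead depletion should remove, summed to between 311 and 466 CPM in controls and between 341 and 588 in Glut1-KO libraries, most of it from Lcp1 alone (277 to 426 CPM in controls and 299 to 528 in Glut1-KO). Ptprc, which encodes CD45, was at most at 3.26 CPM in controls and at least at 5.05 CPM in Glut1-KO libraries. Of the leukocyte markers, 10 of 10 tested were higher in Glut1-KO by their point estimate (median log2 difference 0.92), 6 at an unadjusted p under 0.05 in limma (3.66% of all genes were higher at that p). DESeq2 called 5 of these 10 higher, Ptprc, Itgax, Laptm5, Coro1a and Tyrobp, against 1.38% of all genes in either direction. Markers of endothelial cells were higher in 10 of 10 by point estimate (median 0.64), 1 of them at an unadjusted p under 0.05 in limma and 0 called by DESeq2, with sums of 121 to 433 CPM against 180 to 585. Markers of ciliated cells were lower in 6 of 7 by point estimate (median -0.94; DESeq2 called Foxj1) and those of club cells in 6 of 8 (median -0.45), and for both the sums of the groups overlapped. No listed marker among the genes counted was at 0 in every library, and the listed ciliated marker Cfap126 was not among the symbols counted. In such mixed tissue, fewer cells of a type and less RNA per cell cannot be told apart.

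Slc5a3 (ENSMUSG00000089774) lies on the forward strand of chromosome 16 at chr16:92058322-92087473 in GRCm38, the assembly that mm10 names. Its annotated exons form 2 blocks. The first, of 159 bases, lies wholly within the first exon of Mrps6, a nuclear gene for a protein of the small subunit of the mitochondrial ribosome, which spans chr16:92058270-92112227 on the same strand. The second, of 10754 bases at chr16:92076720-92087473, lies in an intron of Mrps6. The RefSeq transcription starts of both genes, 92058322 and 92058336, are 14 bases apart. Both genes therefore share a promoter region in the annotation, and the stretch just before the first annotated exon of either is printed here because Slc5a3 and Mrps6 were both lower in Glut1-KO libraries. Nfat5 is printed beside it as the gene of the set whose level followed that of Slc5a3 most closely between libraries. Sequences are from RefSeq on GRCm38.p6, read 5′ to 3′ on the strand of the gene, with GC boxes (GGGCGG, or CCGCCC on the opposite strand), the recognition motif of Sp-family factors, in capitals.
Slc5a3, chr16:92058072-92058269, forward strand: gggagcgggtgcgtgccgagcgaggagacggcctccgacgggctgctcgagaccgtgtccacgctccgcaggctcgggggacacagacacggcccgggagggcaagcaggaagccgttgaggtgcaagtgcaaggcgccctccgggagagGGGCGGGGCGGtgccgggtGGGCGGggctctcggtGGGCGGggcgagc
Nfat5, chr8:107293220-107293469, forward strand: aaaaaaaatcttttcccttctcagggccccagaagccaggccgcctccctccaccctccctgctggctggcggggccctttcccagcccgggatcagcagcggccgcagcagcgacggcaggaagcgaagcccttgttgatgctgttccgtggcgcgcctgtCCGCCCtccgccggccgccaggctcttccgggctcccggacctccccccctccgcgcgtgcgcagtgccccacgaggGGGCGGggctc

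The Slc5a3 stretch of 198 bases was 75.8% G or C and held 4 GC boxes, 2 of which share a base. The Nfat5 stretch of 250 bases was 71.6% G or C and held 2 GC boxes. A GC box on either strand was found in 35.7% of the 32851 RefSeq promoter windows, each of 300 bases. The window of Slc38a2, the only other gene of the set with an entry, was 72.2% G or C over its 248 upstream bases and held 1 GC box there. The core of the tonicity-responsive enhancer to which NFAT5 binds (TGGAAA, both strands) was in none of these 3 windows, that is in 0 of 3 against 21.4% of all windows. This says only that these letters are not within the windows searched, and tonicity enhancers can lie far from a start.

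**Figure D1:**
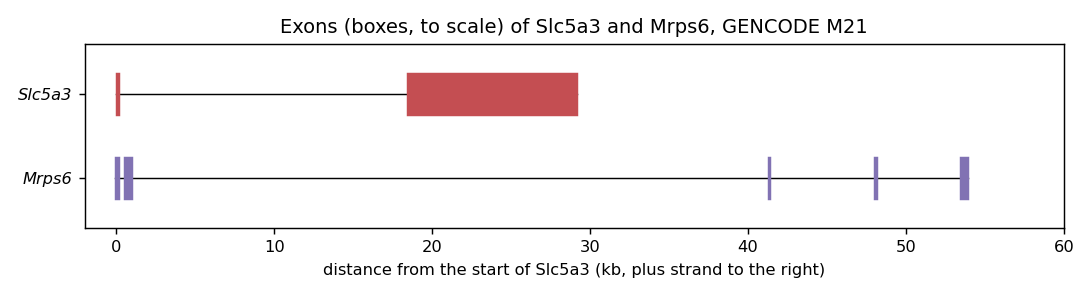
Map of the annotated exons of Slc5a3 and Mrps6, with the distance in kilobases from the start of Slc5a3 on the horizontal axis and 1 row per gene; boxes are exons and lines introns. The genes share the 159 bases of the first Slc5a3 exon, and the long second Slc5a3 exon of 10754 bases lies between exons of Mrps6.

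Slc5a3 was lower in every Glut1-KO library than in every control. It was at 63.7, 50.3, 45.3, 60.7 and 49.9 CPM in control replicates 1 to 5, scaled by trimmed mean of M values (TMM). In Glut1-KO replicates 1 to 5 it was at 26.6, 40.0, 27.8, 27.8 and 32.9 CPM. The highest Glut1-KO library was thus below the lowest control, and female and male Glut1-KO libraries were mixed in order. Group means were 54.0 ± 7.82 and 31.0 ± 5.59 CPM (SD, n = 5 each), and the log2 difference was -0.80 (SE 0.15), which left controls 1.74-fold above Glut1-KO on the scale of the fit. These CPM rest on between 906 and 2710 reads per library. Slc5a3 was the only gene of the 5 without overlap between genotypes. Over all 15922 genes tested, every Glut1-KO library lay below every control for 1.06% and above every control for 0.798%, and nothing is read from the 1 in 5 against this background, since the gene had been chosen for it. With male libraries only, the log2 difference of Slc5a3 was -0.81, and with only the female Glut1-KO libraries it was -0.79. All controls were labelled male, so the latter setting, here and below, compares female Glut1-KO with male control libraries. In it, sex and genotype cannot be told apart. Leaving out any 1 library gave values from -0.90 to -0.74.

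**Figure D2:**
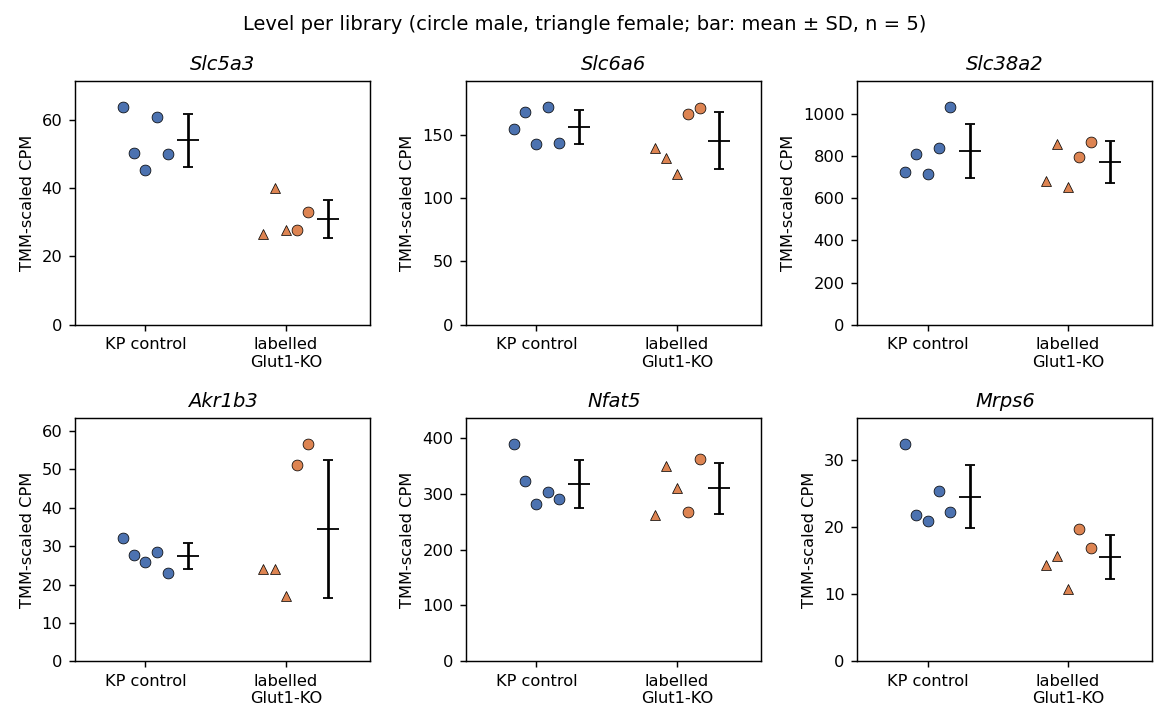
Level of each of the 5 genes and of Mrps6 in each library, 1 panel per gene, with TMM-scaled CPM on the vertical axis and the groups on the horizontal axis. Points are libraries (circles male, triangles female), and bars are the mean and SD of 5 libraries. Slc5a3 points of Glut1-KO lie between 26.6 and 40.0 CPM, below all controls at 45.3 or more, whereas the groups of the other 4 genes overlap.

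Mrps6 (ENSMUSG00000039680), which starts at nearly the same base, was lower as well by its point estimate. It was at 32.4, 21.8, 20.8, 25.4 and 22.3 CPM in controls 1 to 5 and at 14.4, 15.7, 10.8, 19.7 and 16.8 CPM in Glut1-KO 1 to 5. Here too every Glut1-KO library was below every control, but by a small margin of 19.7 against 20.8 CPM. The log2 difference of Mrps6 was -0.68 (SE 0.18), and it did not pass the test across all genes (limma with Benjamini-Hochberg adjustment, adjusted p = 0.411). With male libraries only, it was -0.42. The ratio of Slc5a3 to Mrps6 CPM was 2.22 ± 0.161 in controls (range 1.97 to 2.39) and 2.07 ± 0.495 in Glut1-KO libraries (range 1.41 to 2.58), and these ranges overlap. The shared bases are 1.46% of the exon length of Slc5a3 and 10.4% of that of Mrps6. How reads on the shared bases were assigned is not given in the sources used here, so the level of Mrps6 is the less certain of both. After centring within each group, Slc5a3 and Mrps6 had a correlation of 0.50 over the 10 libraries, which put Mrps6 at rank 463 of the 11409 genes compared with Slc5a3 in that way.

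A list of 15 genes known to rise during tissue dissociation, such as immediate early genes, was also lower in Glut1-KO. It summed to between 6298 and 7456 CPM in controls and between 3643 and 6156 CPM in Glut1-KO libraries, again without overlap. The male Glut1-KO libraries had the lowest sums, 4082 and 3643 CPM, against 5371 to 6156 in the female ones. By point estimate, 14 of 15 of these genes were lower (median log2 difference -0.36), 7 of them at an unadjusted p under 0.05 in limma (4.02% of all genes), and DESeq2 called 4 lower, Jun, Atf3, Ier3 and Klf6 (1.38% of all genes in either direction). The part of this difference in the level of Slc5a3 was not tested.

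For the remaining transporters, Slc6a6 and Slc38a2, the genotypes overlapped. Slc6a6 (ENSMUSG00000030096, chr6:91684053-91759066, forward strand, 17 exon blocks) was at 155, 168, 143, 172 and 143 CPM in controls and at 139, 131, 119, 166 and 171 CPM in Glut1-KO replicates 1 to 5. The 3 female Glut1-KO libraries lay below every control, and both male ones lay inside the control range. Means were 156 ± 13.6 and 145 ± 22.4 CPM, with a log2 difference of -0.11 (SE 0.12). This difference turned to 0.11 with male libraries only and was -0.26 with female Glut1-KO libraries only. Since the male Glut1-KO libraries are also those that share a name number and whose Slc2a1 level lay inside the control range, these traits cannot be told apart within the Glut1-KO group, here or for the same split in other genes.

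Slc38a2 (ENSMUSG00000022462, chr15:96687392-96699730, reverse strand, 11 exon blocks) had the most reads of the set, between 25941 and 43615 per library. Control libraries ranged from 716 to 1031 CPM with a median of 810, and Glut1-KO libraries from 653 to 866 with a median of 796. The groups overlapped, with means of 824 ± 127 and 770 ± 98.2 CPM and a log2 difference of -0.09 (SE 0.14). The male-only value was 0.02.

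Akr1b3 was the most variable of the 5 genes among Glut1-KO libraries. This gene (ENSMUSG00000001642, chr6:34302434-34317478, reverse strand, 7 exon blocks) was at 32.0, 27.8, 25.8, 28.5 and 23.1 CPM in controls. It was at 24.0, 24.0 and 17.0 CPM in the female Glut1-KO replicates 1 to 3 and at 51.1 and 56.6 CPM in the male replicates 4 and 5. Both male Glut1-KO libraries were above every control, while 1 female library was below every control and the other two were inside the control range. The coefficient of variation was 12.1% in controls and 52.0% in Glut1-KO libraries. Means were 27.4 ± 3.32 and 34.5 ± 18.0 CPM, and the log2 difference was 0.17 (SE 0.31). It was 0.98 with male libraries only and -0.35 with only the female Glut1-KO libraries, so the direction depended on which Glut1-KO libraries entered. Leaving out 1 library gave values from -0.06 (without Glut1-KO replicate 5) to 0.39 (without Glut1-KO replicate 3), with 0.0025 without Glut1-KO replicate 4. The log2 difference of Akr1b3 was 0.33 with edgeR and 0.34 with DESeq2.

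Nfat5, the transcription factor of the set, was at nearly the same level in both genotypes. The gene (ENSMUSG00000003847, chr8:107293470-107379517, forward strand, 16 exon blocks) was at 389, 322, 282, 303 and 290 CPM in controls and at 261, 348, 311, 266 and 362 CPM in Glut1-KO libraries. Means were 317 ± 43.0 and 310 ± 45.9 CPM, with a log2 difference of -0.04 (SE 0.13). Its transcript level says nothing of NFAT5 protein, which is also controlled by its stability and its place in the cell.

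Across the set, 5 of 5 genes passed the filter on low counts and 4 of 5 had a log2 difference below 0. Over all genes tested, the median log2 difference was -0.0049 with 49.3% above 0 and 50.7% below. No gene of the table passed an adjusted p of 0.05 in limma (0 of 15922, 0%) or in edgeR (0%), the smallest adjusted p in limma being 0.23. At an unadjusted p under 0.05 limma gave 583 higher genes (3.66%) and 640 lower genes (4.02%), together 7.68%, and DESeq2 called 215 of 15538 (1.38%).

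To compare levels between genes, CPM were divided by the length of the annotated exons in kilobases (CPM per kb). In controls, Slc38a2 was highest, at 93.2 ± 14.4 CPM per kb (range 81.1 to 117). Slc6a6 followed at 18.5 ± 1.61 (16.9 to 20.3) and Nfat5 at 17.3 ± 2.34 (15.3 to 21.2), and these neighbours overlapped. Slc5a3 was at 4.95 ± 0.717 (4.15 to 5.84) and Akr1b3 at 3.27 ± 0.396 (2.75 to 3.82), which did not overlap in controls. In Glut1-KO libraries the order of Slc5a3 and Akr1b3 was lost, with 2.84 ± 0.512 (2.44 to 3.67) for Slc5a3 and 4.12 ± 2.14 (2.03 to 6.76) for Akr1b3. The order of this last pair also turned with the length used, because Akr1b3 has several annotated transcripts: divided by its longest transcript alone, Akr1b3 was at 5.46 ± 0.661 CPM per kb in controls (4.59 to 6.37). Rescaled to the same sum in every library (TPM), the means of CPM per kb over 10 libraries were 290 for Slc38a2, 57.0 for Slc6a6, 54.7 for Nfat5, 12.5 for Slc5a3 and 11.7 for Akr1b3. The study's methods left out genes with a mean TPM under 20, and Slc5a3 and Akr1b3 would be among them.

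**Figure D3:**
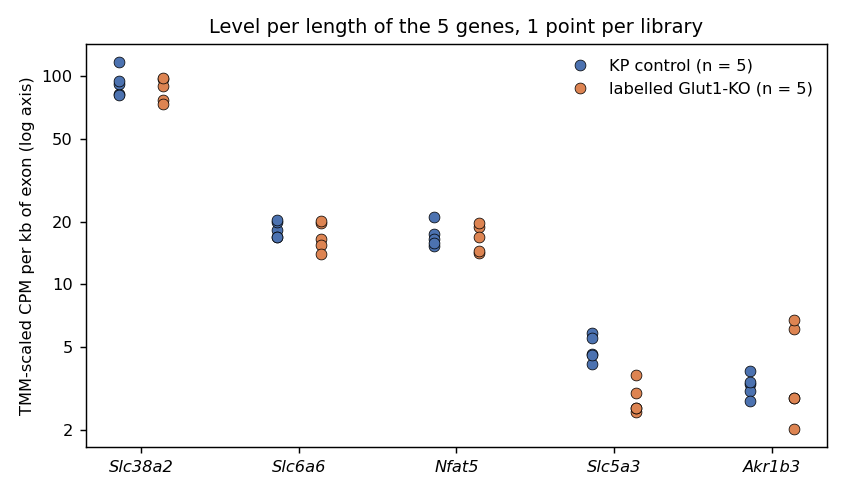
Level of the 5 genes as TMM-scaled CPM per kilobase of annotated exon, on a log axis; each point is 1 library, blue for controls and orange for Glut1-KO. Slc38a2 is highest at 81.1 to 117 in controls, Slc6a6 and Nfat5 overlap, and Slc5a3 and Akr1b3 are lowest.

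Covariation between libraries was measured on log2 CPM (prior count 2) after subtracting the mean of each group, which removes the difference between genotypes. All 10 pairs of the 5 genes were compared over 10 libraries, with an exact two-sided permutation test that shuffled libraries within groups (14400 pairings) and Benjamini-Hochberg adjustment over the 10 pairs. Slc5a3 and Nfat5, the transporter and the factor known to raise its transcription, had Pearson r = 0.78 (exact permutation p = 0.0149, adjusted p = 0.0743) and Spearman rho = 0.82 (p = 0.0103, adjusted p = 0.0517), so this pair missed the threshold after adjustment. Without the 2 libraries farthest from the median of Slc5a3, r was 0.70 (exact permutation p = 0.0569). Centred by group and sex label, r of Slc5a3 and Nfat5 was again 0.78 (exact permutation p = 0.0194, adjusted p = 0.194).

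Slc6a6 and Akr1b3 had r = 0.90 (exact permutation p = 0.00458, adjusted p = 0.0458) and rho = 0.92 (p = 0.00368, adjusted p = 0.0368). The Glut1-KO libraries were split by sex label in this relation, with both genes above their group mean in the 2 male libraries and below it in the 3 female ones. Centred by group and sex label, r was 0.70 (exact permutation p = 0.0736, adjusted p = 0.368), so the relation did not hold past the threshold within sex labels. Without the 2 libraries farthest from the median of Slc6a6, r was 0.89 (exact permutation p = 0.0677). The other 8 pairs had r between 0.09 and 0.33, with adjusted p of 0.796 or more in the exact permutation test.

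**Figure D4:**
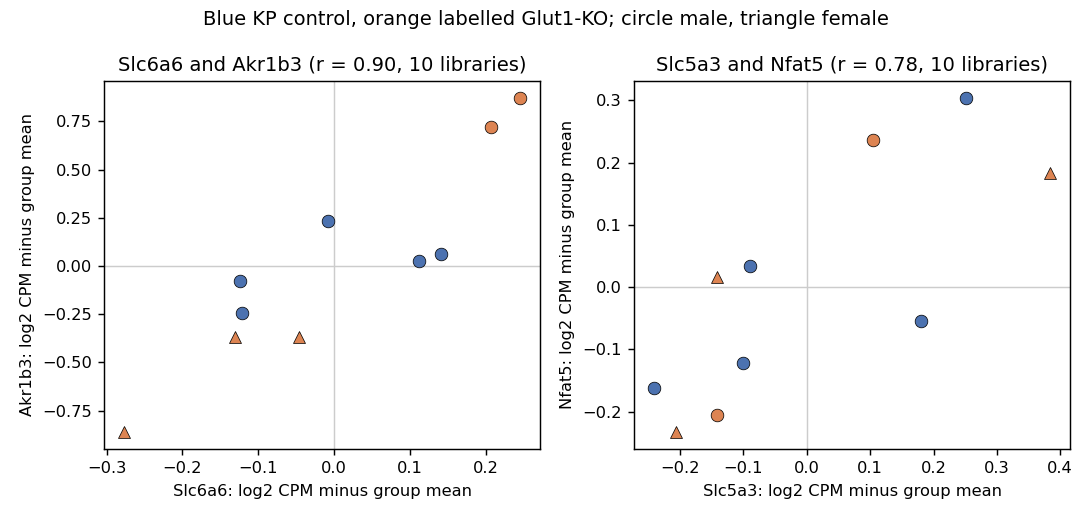
Deviation of each library from its group mean on the log2 CPM scale, for Akr1b3 against Slc6a6 and for Nfat5 against Slc5a3; points are the 10 libraries, coloured by group and shaped by sex label. The first pair has r = 0.90, with the male Glut1-KO libraries at the upper right, and the second r = 0.78.

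Over the 11409 genes with a mean of at least 5 CPM, the genes whose deviations from the group means were most like those of Slc5a3 were Nvl (r = 0.91), Socs2 (0.90), Akap10 (0.90), Rab8b (0.89) and Cbl (0.88), over 10 libraries. Nfat5 was at rank 24. Ranked by likeness to Nfat5, Fam114a2 (0.91) and Ccdc66 (0.89) came first and Slc5a3 was at rank 41. For Slc6a6, Arpp19 (0.97) and Gtpbp1 (0.97) led and Akr1b3 was at rank 64. For Akr1b3, Naa38 (0.98) and Mrps25 (0.98) led and Slc6a6 was at rank 107. For Slc38a2, Ube2h (0.93) and Thoc2 (0.90) led. With 10 libraries and this many genes, coefficients near 0.9 were thus reached by genes outside the osmolyte pathway for each of the 5 genes.

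The other genes of osmolyte handling were followed in 6 lists of 91 genes in all, of which 80 passed the filter on low counts. By point estimate 46 were higher and 34 lower in Glut1-KO libraries, with a median log2 difference of 0.02 beside -0.0049 over all genes tested. None passed limma (0 of 80) or edgeR (0), against 4 higher and 5 lower at an unadjusted p under 0.05, where all genes gave 3.66% and 4.02%. DESeq2 called 2, Sgk1 and Atf3, both lower, beside 1.38% of all genes, so these counts lay near the background.

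Of 11 further osmolyte transporters, 7 were tested, and 6 were higher and 1 lower by point estimate, with a median of 0.45. This median fell to 0.065 without control replicate 2 and was 0.085 with no filter on low counts and -0.049 with a mean TPM of at least 20. The betaine and GABA transporters Slc6a12 and Slc6a13 and the inositol transporter Slc5a11 were among the 4 too low to test. Slc38a5, a relative of Slc38a2 that carries glutamine, had 0.166 ± 0.131 CPM in controls and 0.785 ± 0.821 in Glut1-KO, a log2 difference of 1.88 (SE 0.71, limma adjusted p = 0.587), and 4 of 5 Glut1-KO libraries were above every control at these very low levels. The log2 difference of Slc38a5 was 0.77 with male libraries only and 2.60 with female Glut1-KO libraries only. Slc2a13, the proton-coupled myo-inositol transporter HMIT, had a point estimate opposite in sign to that of Slc5a3, with 0.661 ± 0.210 and 1.05 ± 0.335 CPM (log2 difference 0.68, SE 0.30, limma adjusted p = 0.644). Slc38a1, another transporter of neutral amino acids, was at 41.6 ± 29.1 and 65.4 ± 35.6 CPM (0.81, SE 0.50, adjusted p = 0.741).

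Among enzymes of polyols and inositol, 8 of 11 tested were higher and 3 lower, with a median of 0.06. Impa1, which releases free myo-inositol from inositol phosphate, was at 89.4 ± 10.2 CPM in controls and 104 ± 11.3 in Glut1-KO (0.22, SE 0.12, limma adjusted p = 0.696). Akr1b8, an aldo-keto reductase related to Akr1b3, showed the same split as Akr1b3: controls lay between 134 and 202 CPM, female Glut1-KO libraries between 138 and 160 CPM, and the male ones at 301 and 432 CPM. Its log2 difference was 0.49 (SE 0.30, limma adjusted p = 0.740). Akr1b7, of the same family, was at or under 0.988 CPM in every library (-1.21, SE 0.91, limma adjusted p = 0.775). Of the enzymes of taurine, betaine and glycerophosphocholine, 9 were tested, with 6 higher, 3 lower and a median of 0.22. Aldh7a1, which makes betaine from betaine aldehyde among other reactions, was at 116 ± 17.3 and 165 ± 43.0 CPM (0.49, SE 0.18, limma adjusted p = 0.567), with 4 of 5 Glut1-KO libraries above every control. Csad, the decarboxylase of taurine synthesis, was at 50.6 ± 8.15 and 68.3 ± 17.5 CPM (0.41, SE 0.19, limma adjusted p = 0.654). Chdh, which oxidises choline on the way to betaine, was at 50.4 ± 15.1 and 67.4 ± 14.1 CPM (0.45, SE 0.25, limma adjusted p = 0.708).

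All 22 genes of cell volume and water transport were tested, with 15 higher, 7 lower and a median of 0.02. Lrrc8e, a subunit of the volume-regulated anion channel through which taurine and inositol leave swollen cells, was at 35.9 ± 9.34 and 44.8 ± 2.25 CPM (0.35, SE 0.16, limma adjusted p = 0.665). Aqp1, a water channel of endothelium, was at 79.3 ± 26.2 and 109 ± 34.6 CPM (0.46, SE 0.27, limma adjusted p = 0.728), beside the summed endothelial markers above, whose part in it was not tested. Slc4a2, an anion exchanger, was at 158 ± 10.9 and 146 ± 17.7 CPM (-0.12, SE 0.11, limma adjusted p = 0.805).

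Tonicity signalling and other NFAT5 targets were the list with the most lower genes, 11 of 17 tested, with a median of -0.12. Of the 17, 4 were lower and 1 higher at an unadjusted p under 0.05 in limma (4.02% and 3.66% of all genes). The 17 also include relatives of NFAT5 that are not named as its targets. These are Nfatc1 (0.26), Nfatc2 (-0.04), Nfatc3 (0.04) and Nfatc4 (0.91), by log2 difference. Sgk1, a kinase that rises in hypertonic medium and with glucocorticoids, was between 62.1 and 201 CPM in controls and between 26.7 and 57.0 CPM in Glut1-KO libraries, without overlap. Its log2 difference was -1.24 (SE 0.31), with an adjusted p of 0.369 in limma and 0.00941 in DESeq2. Hsph1, a chaperone, was at 252 ± 37.1 and 176 ± 60.5 CPM (-0.57, SE 0.22, limma adjusted p = 0.591). The female Glut1-KO libraries had 125 to 141 CPM of Hsph1 and the male ones 237 and 247, inside the control range of 203 to 293, and the difference was -0.046 with male libraries only. Parp1, which has been described as a partner of NFAT5, was at 76.4 ± 7.38 and 93.5 ± 10.6 CPM (0.29, SE 0.11, limma adjusted p = 0.599). In the list of the amino acid response, the ATF4-driven programme that also raises Slc38a2, 9 of 14 were lower and 5 higher. Their median was -0.11. It turned to 0.15 with male libraries only and with sex as a covariate, which is the same comparison since no control was female. Atf3, a stress-induced factor of that list that also stands in the list of dissociation stress, was between 212 and 413 CPM in controls and between 131 and 179 CPM in Glut1-KO libraries, without overlap. Its log2 difference was -0.94 (SE 0.17), with an adjusted p of 0.230 in limma and 0.000274 in DESeq2. The glutamine carrier Slc1a5 was at 164 ± 23.3 and 202 ± 34.1 CPM (0.30, SE 0.14, limma adjusted p = 0.669), and the lipoprotein receptor Vldlr at 34.0 ± 9.92 and 56.9 ± 25.5 CPM (0.67, SE 0.33, limma adjusted p = 0.677). Sgk1 and Atf3 were 2 of the 80 tested genes in these lists whose Glut1-KO libraries all lay below all controls, and 0 of 80 lay above, against 1.06% and 0.798% of all genes.

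Several of these differences moved by more than 1.5 times with the Glut1-KO libraries used. With male libraries only they were smaller for Aldh7a1 (0.24), Aqp1 (0.15), Parp1 (0.14), Slc1a5 (0.10), Slc2a13 (0.45) and Slc4a2 (-0.032), and with only the female Glut1-KO libraries they were 0.66, 0.67, 0.39, 0.43, 0.84 and -0.18 in the same order. They were larger in size with male libraries only for Slc38a1 (1.42), Vldlr (1.11), Akr1b8 (1.25) and Akr1b7 (-2.23), against 0.42, 0.38, -0.017 and -0.50 with only the female Glut1-KO libraries. Sgk1 (-0.94 and -1.44) and Atf3 (-1.13 and -0.79) were below 0 in both settings.

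**Figure D5:**
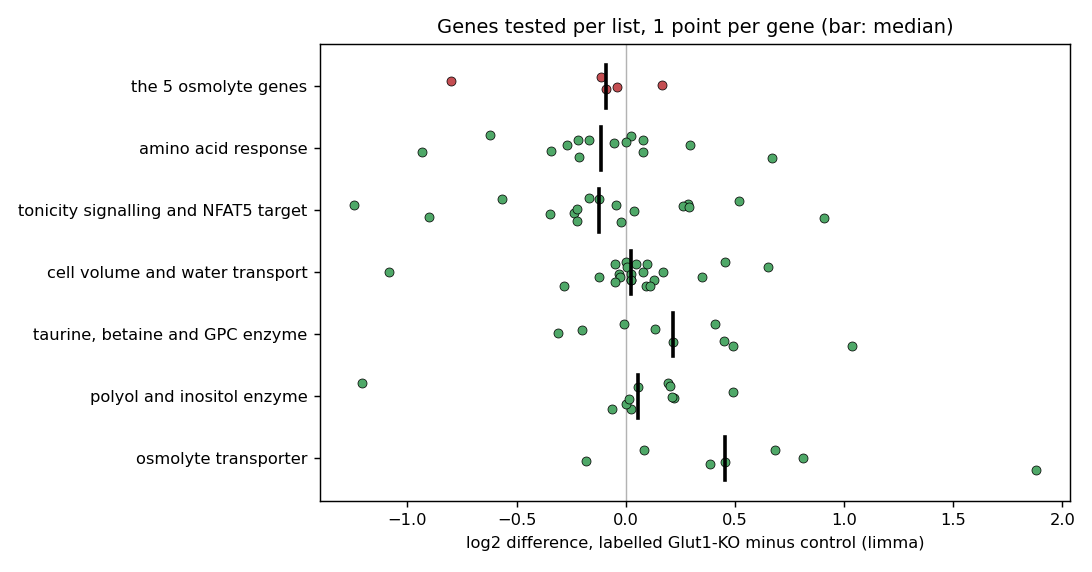
Log2 difference (Glut1-KO minus control) of the 5 osmolyte genes and of each tested gene of the 6 lists, 1 row per list; points are genes, bars the list medians and the grey line a difference of 0. Medians of the 6 lists lie between -0.12 for tonicity signalling and 0.45 for the further transporters.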

How the data were processed

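RNA of CD45-negative cells from macrodissected lung tumours was measured in 10 libraries, 5 per group as labelled. The authors made stranded mRNA libraries, sequenced single-end reads on a NextSeq instrument, removed adapters (Cutadapt) and aligned to mm10 (HISAT2). The submitters' processing notes name featureCounts 1.4.4 as the counter; the annotation release and the use of strand are not given in the sources used here. The deposited values are raw counts per Ensembl gene for 39017 genes, and 10 of 10 columns of the joint table equalled the single files. A deposited table of log2 values was not used.

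Counts were kept by filterByExpr (minimum count 10, minimum total 15; 15922 genes), scaled by TMM (edgeR 4.0.16), passed to voom (prior count 0.5), and modelled by group in limma 3.58.1 (R 4.3.3) after the study's methods, and Benjamini-Hochberg adjustment over all genes tested (threshold 0.05). The edgeR quasi-likelihood test, DESeq2 1.42.0, other scalings and filters, sex, name numbers and leaving out each library were alternatives. Positions and exon lengths came from GENCODE M21, which held 37607 of the 39017 identifiers. Fits and correlations were tested on simulated data first. The members and gene lists were chosen with earlier results of these data known. Named were, in each list, the 3 tested genes with the smallest limma p, and by likeness to each member the 2 genes (5 for Slc5a3) with the highest within-group r. P-values measure the spread between libraries only.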

Additional observations from a re-analysis of the deposited data

Results flagged for a closer look

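In groups of 5 libraries, a library was singled out where its gap to the nearest other library exceeded 0.71 of the range of its group. This was so for 9 of 72 groups of values, where chance gives about 1 in 20 (3.6). No value of the 5 osmolyte genes was among them. Slc38a5 was at 0.395 CPM in control replicate 3 (others 0.0763 to 0.145) and at 2.21 CPM in Glut1-KO replicate 2 (others 0.123 to 0.674). In the latter library Slc2a13 was also highest, at 1.64 CPM (others 0.797 to 0.949). Slc38a1 was at 127 CPM in Glut1-KO replicate 5 (others 43.5 to 64.2), and Akr1b8 at 202 CPM in control replicate 1 (others 134 to 151). Control replicate 2 held 49760462 counts (others 40122224 to 41439285). Summed markers stood apart for ciliated cells in Glut1-KO replicate 1 (55.0 CPM, others 15.3 to 25.9), for leukocytes in control replicate 4 (466 CPM, others 311 to 354, of which Lcp1 alone made 426 CPM, with Ptprc inside the control range) and for erythroid cells in control replicate 3 (1462 CPM, others 237 to 463). The part of these libraries in the results was not tested beyond leaving each out.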

How the results depend on the processing

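The log2 difference of Slc5a3 stayed between -0.90 and -0.74 over 21 alternative settings, that of Nfat5 between -0.09 and 0.04 and that of Slc38a2 between -0.16 and 0.02. Those of Slc6a6 (0.11) and Akr1b3 (0.98) moved with sex as a covariate and with male libraries only, where Slc2a1 was at 0.061 and 0.060. No control was female, so with sex as a covariate the group difference rests on the male libraries. Both settings are thus the same comparison throughout, and not separate checks. With female Glut1-KO libraries only, chosen after seeing the data, Akr1b8 was at -0.017. The count of genes past the threshold, 0, became 215 with DESeq2, which included Sgk1 (-1.32) and Atf3 (-0.95), 1 gene each of the tonicity and amino acid response lists. It became 3 with sex as a covariate, 1 with male libraries only, 9 with female Glut1-KO libraries only and 2 with counts summed by name number, and it ranged from 0 to 1 when a library was left out (1 without control replicate 3). The filter of a mean TPM of 20 left out Slc5a3 and Akr1b3, so it gave them no value.

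The median of the osmolyte transporter list was 0.085 with no filter, -0.049 with a mean TPM of 20 and from 0.065 (without control replicate 2) to 0.71 (without Glut1-KO replicate 3) with a library left out. That of the polyol and inositol list was 0.14 with edgeR and with DESeq2, 0.012 with male and 0.12 with female Glut1-KO libraries only, 0.11 with counts summed by name number and from 0.00069 to 0.18 with a library left out, moving without control replicates 2 and 3 and without Glut1-KO replicates 4 and 5. That of the taurine list was 0.43 with a mean TPM of 20 and 0.47 with female Glut1-KO libraries only. With sex as a covariate and with male libraries only, the medians of the cell volume list (0.18) and the amino acid response list (0.15) moved.

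Replicate numbers are shared between the groups, but same-numbered libraries did not deviate together (correlations from -0.13 to 0.21, 1 of 5 best with its own number). The numbers were therefore not used to pair the libraries, although so few libraries cannot exclude a pairing. With the replicate block, 0 genes passed, Slc5a3 was at -0.80 and the median of the polyol and inositol list was 0.11.

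The correlation of Slc5a3 and Nfat5 passed adjustment with library totals only (0.81) and ranged from 0.72 to 0.86 with a library left out, passing without control replicate 4. That of Slc6a6 and Akr1b3 no longer passed without the 2 farthest libraries (0.89), centred by group and sex label (0.70, added after seeing the data) or in 8 of 10 omissions of a library (0.84 to 0.93 over all 10). Omissions gave -0.21 to 0.33 for Slc6a6 and Nfat5, -0.084 to 0.39 for Slc38a2 and Nfat5 and -0.14 to 0.52 for Akr1b3 and Nfat5. That of Slc38a2 and Akr1b3 was -0.075 when centred by group and sex label. Divided by the longest transcript, mean levels over all libraries were 24.4 CPM per kb for Slc6a6, 130.3 for Slc38a2, 6.17 for Akr1b3 and 23.3 for Nfat5. The cause of these changes was not tested. Slc38a5, Slc2a13 and Akr1b7 were under 1 CPM in most libraries, where counting error adds to the spread.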
